A study of Homo sapiens with 12 samples.

Results

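The 10 genes described here make, inhibit and break down polyamines, and they were taken by symbol from the 61552 genes of a deposited count table. The symbols were ODC1, AMD1, SRM, SMS, OAZ1, OAZ2, AZIN1, SAT1, SMOX and PAOX, and all 10 passed a filter on low counts that left 20304 genes for testing. They were chosen by what they do, with no threshold on these values. Messenger RNA was sequenced in 12 libraries of 2 cultured human neuroblastoma lines, SK-N-AS and SK-N-BE(2). Each line had 3 control libraries and 3 libraries from cells kept overnight with ML210, a small molecule that inhibits the lipid peroxide-reducing enzyme GPX4. The labels gave the genotype of all 4 groups as WT and a batch of 1 to 3 for each library. They gave no dose for ML210 and no agent for the controls.

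Polyamine synthesis starts when ornithine decarboxylase (ODC1) makes putrescine, to which spermidine synthase (SRM) and spermine synthase (SMS) add aminopropyl groups that come from decarboxylated S-adenosylmethionine, the product of AMD1. Antizymes (OAZ1 and OAZ2) bind ODC1 protein and send it to the proteasome, and the antizyme inhibitor AZIN1 binds antizymes in place of ODC1. SAT1 acetylates spermidine and spermine for export or for oxidation by PAOX, and SMOX oxidizes spermine directly, both with release of hydrogen peroxide. In neuroblastoma, ODC1 is a known transcriptional target of MYCN, and SAT1 has been linked to ferroptosis, the lipid peroxidation death that GPX4 inhibitors induce.

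The study describes SK-N-BE(2) as the line with amplified MYCN and SK-N-AS as the line without it, so each MYCN status rests on a single line. The libraries went against this. MYCN lay between 3457 and 3932 CPM (counts scaled to a common TMM-adjusted library total) in the 6 libraries labelled SK-N-AS and between 0.0607 and 0.240 CPM in the 6 labelled SK-N-BE(2). The lines are therefore called by their label throughout, and each direction between them is a direction between labels. The neuroblastoma label was checked on 7 adrenergic markers, whose summed level was 2586 to 2643 CPM in controls labelled SK-N-AS and 1024 to 1085 CPM in controls labelled SK-N-BE(2). The sum of 7 mesenchymal neuroblastoma markers ran the other way, at 235 to 304 and 2326 to 2943 CPM. Summed markers of blood cells (1.53 to 3.39 against 264 to 330 CPM) and of epithelial cells (1.57 to 4.34 against 159 to 229 CPM) were higher in controls labelled SK-N-BE(2). Under that label the blood cell sum was nearly all PTPRC (mean 0.987 against 289.8 CPM), while CD14 was lower (1.52 against 0.336 CPM), and the epithelial sum was nearly all KRT8 (1.38 against 92.7 CPM) and KRT18 (1.398 against 104 CPM), while EPCAM (0.220 and 0.111 CPM) and CDH1 (0.102 and 0.00919 CPM) stayed near 0. The sum of 3 endothelial markers was 17.1 to 34.9 against 1.12 to 2.12 CPM and that of 4 Schwann cell markers 4.34 to 4.82 against 0.963 to 1.12 CPM. None of these markers was at 0 reads in either control group. Mitochondrial transcripts took 4.86% to 6.07% of counts in controls labelled SK-N-AS and 2.11% to 2.46% in those labelled SK-N-BE(2). Library totals were between 54047293 and 83481963 counts. These values move with the line label, and their part in the differences between labels was not tested. GPX4 mRNA itself was not called in any comparison.

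The promoters of the members with a window at hand were read first, because an E-box, CACGTG, is the letter pattern that MYC family proteins bind. RefSeq windows (GRCh38.p14) from 250 bases before to 50 after a start covered 7 members, in 10 windows, and both strands were searched. The pattern CACGTG was in 7.26% of all 35116 windows of that length. It occurred 2 times in an ODC1 window and 1 time in that of SRM, and in none of the windows of AMD1, SMS, SAT1, OAZ1 and OAZ2. The variant CACGCG, in 11.4% of all windows, was found among the members' windows only in the other one of ODC1, 2 times on overlapping letters, as CACGCGTG holds it on both strands. That window also held 1 match to the antioxidant response core TGACNNNGC, which 13.3% of all windows hold. Capitals mark the E-box or its variant in the following sequences, written on the strand of the gene. The ODC1 stretch at chr2:10448505-10448577 (minus strand) ends at the annotated gene start. The stretch at chr2:10448013-10448120 (minus strand) and the site at chr2:10447990-10448019 (minus strand) lie by a RefSeq alternative start that falls within the gene.
ODC1 before the gene start: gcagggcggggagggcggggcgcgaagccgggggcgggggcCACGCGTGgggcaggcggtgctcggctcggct
ODC1 before the alternative start: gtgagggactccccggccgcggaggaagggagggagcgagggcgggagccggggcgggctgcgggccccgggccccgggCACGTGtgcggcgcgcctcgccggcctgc
ODC1 second E-box: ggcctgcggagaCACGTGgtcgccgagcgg
The SRM stretch at chr1:11060025-11060268 (minus strand) carries its E-box in the first part. The AMD1 stretch at chr6:110874535-110874769 (plus strand) is shown beside it as a member without either pattern.
SRM before the start: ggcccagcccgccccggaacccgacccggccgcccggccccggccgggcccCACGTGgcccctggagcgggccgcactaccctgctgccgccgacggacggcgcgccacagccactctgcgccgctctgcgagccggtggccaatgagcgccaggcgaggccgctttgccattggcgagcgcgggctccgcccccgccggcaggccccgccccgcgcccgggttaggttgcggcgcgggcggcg
AMD1 before the start: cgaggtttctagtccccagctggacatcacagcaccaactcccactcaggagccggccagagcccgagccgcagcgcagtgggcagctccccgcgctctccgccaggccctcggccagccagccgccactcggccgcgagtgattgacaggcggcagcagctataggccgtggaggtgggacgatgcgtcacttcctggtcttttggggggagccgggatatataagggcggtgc
These matches describe letters in a window, and binding was not measured.

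Levels of different genes were compared per kilobase of merged GENCODE 29 exons (RPKM from the TMM-scaled totals). Merged exons hold the bases of all annotated transcripts of a gene, so the order of the genes depends on this length. In controls labelled SK-N-AS, ODC1 had the highest level of the set at 235 ± 21.7 RPKM (SD, n = 3), followed by OAZ1 at 193 ± 8.86 RPKM and SRM at 136 ± 6.10 RPKM. SMS (83.1 RPKM), AZIN1 (70.0 RPKM), AMD1 (22.7 RPKM) and OAZ2 (12.6 RPKM) came next. The catabolic genes were the lowest, with SAT1 at 2.66 ± 0.315 RPKM, SMOX at 0.818 ± 0.287 RPKM and PAOX at 0.0383 ± 0.0198 RPKM. No neighbours in this order overlapped, and the order was the same in ML210 libraries labelled SK-N-AS.

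In controls labelled SK-N-BE(2) the same synthesis genes lay above the catabolic ones, but ODC1 was the fourth in the order. OAZ1 (111 ± 8.93 RPKM) and SRM (105 ± 9.76 RPKM) led and overlapped each other. SMS (75.5 ± 6.55 RPKM) and ODC1 (69.3 ± 2.34 RPKM) followed and also overlapped. AZIN1 (42.4 RPKM), OAZ2 (15.8 RPKM) and AMD1 (12.3 RPKM) came below them without overlap. SMOX at 4.51 ± 1.07 RPKM stood above SAT1 at 1.29 ± 0.263 RPKM, the reverse of their order in libraries labelled SK-N-AS. PAOX was the lowest again, at 0.353 ± 0.0663 RPKM. In the ML210 libraries of this label, ODC1 (73.0 RPKM) and SMS (68.5 RPKM) overlapped in the opposite order.

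**Figure D1:**
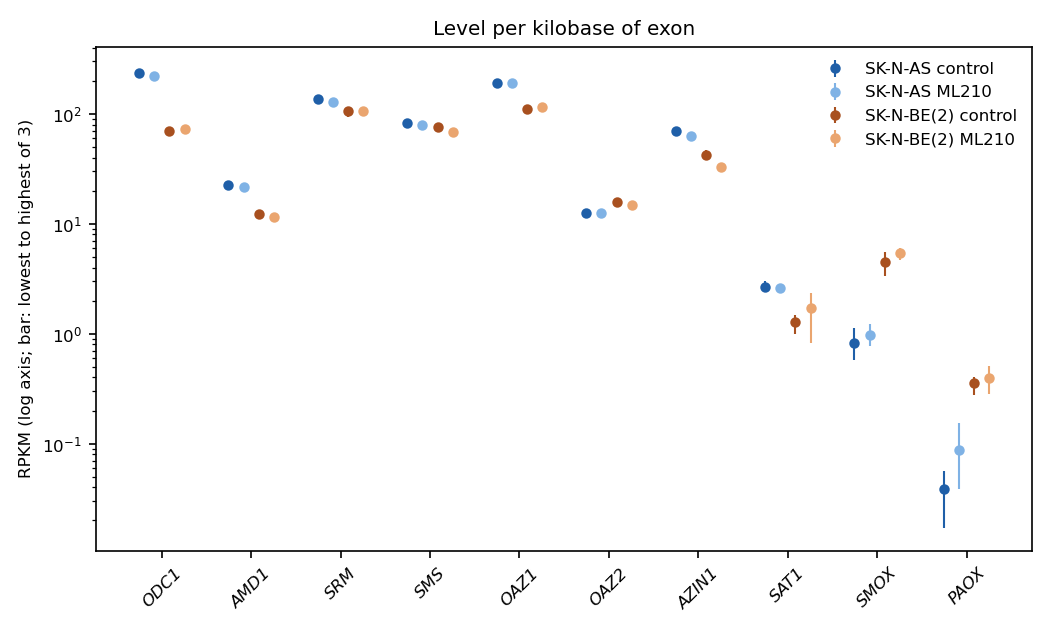
Mean level per kilobase of exon (RPKM, log axis) of the 10 genes in the 4 groups, with bars from the lowest to the highest of 3 libraries. ODC1 leads in libraries labelled SK-N-AS, and SAT1, SMOX and PAOX are the 3 lowest genes in every group.

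The control libraries of both labels were then compared (SK-N-BE(2) minus SK-N-AS, by label). ODC1, AMD1, SRM, OAZ1, AZIN1 and SAT1 were lower and OAZ2, SMOX and PAOX higher in controls labelled SK-N-BE(2), and SMS was not called. Calls needed an adjusted p below 0.05 in edgeR's quasi-likelihood test. Of all genes tested 69.2% were called here, 33.9% higher and 35.2% lower, so that 9 called members of 10 (3 higher, 6 lower) is read against a background in which most genes differ. The groups did not overlap for 9 members, against 74.0% of all genes. The median log2 difference of the members was -0.55, beside -0.01 over all genes tested. Scaling by library totals moved the median over all genes to 0.24 and the calls from 6893 higher and 7154 lower to 8575 higher and 5550 lower, and under it 3 members were higher and 5 lower. In bulk RNA, fewer cells carrying a transcript and less of it in each cell cannot be told apart. Whether each library had a culture of its own is not said beyond its batch label, and a p-value here covers no more than library-to-library spread.

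**Figure D2:**
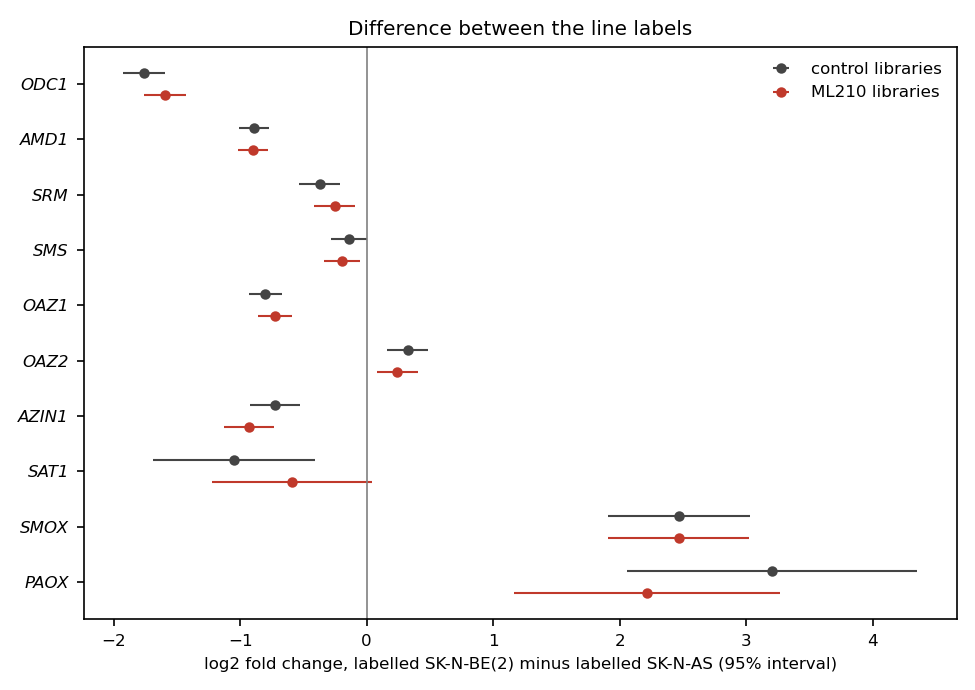
Log2 fold change with its 95% interval for each gene, SK-N-BE(2) label minus SK-N-AS label, in control and in ML210 libraries. ODC1 has the lowest value in both, and SMOX and PAOX the highest.

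ODC1 (chromosome 2, 10439968 to 10448504, minus strand) encodes the first and rate-limiting enzyme of the pathway. Its level was 746, 624 and 719 CPM in controls labelled SK-N-AS and 211, 198 and 209 CPM in controls labelled SK-N-BE(2). Every library of the first group was above every library of the second. The log2 difference was -1.76 (SE 0.0764, 95% interval -1.92 to -1.59, adjusted p = 1.49e-10), a level 3.38-fold lower. Within the batches it was -1.83, -1.66 and -1.78. The ML210 libraries, compared in the same way after the data had been seen, gave -1.59 (adjusted p = 3.84e-10).

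AMD1 (chromosome 6, 110874770 to 110895713, plus strand), which supplies the aminopropyl donor, was at 161, 152 and 166 CPM in controls labelled SK-N-AS and at 90.7, 81.0 and 86.9 CPM in controls labelled SK-N-BE(2). The groups were well apart, with a log2 difference of -0.89 (SE 0.0560, adjusted p = 5.6e-09). Reads of its copies AMD1P1, AMD1P2 and AMD1P3 numbered 7, 40 and 68 over the 12 libraries, few beside the 17694 reads of AMD1 in the smaller of these groups. Spermidine synthase, SRM (chromosome 1, 11054584 to 11060024, minus strand), differed less, with 272, 249 and 256 CPM against 213, 208 and 179 CPM. These groups did not overlap either, and the log2 difference was -0.37 (SE 0.0754, adjusted p = 0.000553). With library totals in place of TMM it was -0.13 and not called (adjusted p = 0.141).

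SMS (chromosome X, 21940573 to 21994835, plus strand), which makes spermine from spermidine, was the member closest to level between the labels. It stood at 167, 186 and 186 CPM in controls labelled SK-N-AS and 175, 167 and 147 CPM in controls labelled SK-N-BE(2), which overlapped. The log2 difference was -0.14 (SE 0.0658, 95% interval -0.28 to 0.003, adjusted p = 0.0750). It was -0.19 (adjusted p = 0.0273) without replicate 1 of the SK-N-AS controls, -0.17 (adjusted p = 0.0497) without replicate 1 of the SK-N-BE(2) controls and 0.11 (adjusted p = 0.123) with library totals. The ML210 libraries of the labels did not overlap, at 164, 173 and 172 CPM against 151, 148 and 146 CPM, with a log2 difference of -0.20 (adjusted p = 0.0172).

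The antizymes went in opposite directions. OAZ1 (chromosome 19, 2269509 to 2273490, plus strand), the antizyme with the higher level per length, was at 681, 627 and 679 CPM in controls labelled SK-N-AS and at 367, 416 and 359 CPM in controls labelled SK-N-BE(2). The log2 difference was -0.80 (SE 0.0613, adjusted p = 4.28e-08), and the pseudogene OAZ1P1 had 0 reads. OAZ2 (chromosome 15, 64687573 to 64703281, minus strand) was at 85.9, 101 and 104 CPM against 119, 122 and 122 CPM. It was the one antizyme with the higher level under the SK-N-BE(2) label, with a log2 difference of 0.32 (SE 0.0744, adjusted p = 0.00144). The antizyme inhibitor AZIN1 (chromosome 8, 102826357 to 102893864, minus strand), a relative of ODC1 without its enzyme activity, was at 415, 452 and 484 CPM against 267, 249.6 and 300.3 CPM. Its groups did not overlap and its log2 difference was -0.72 (SE 0.0923, adjusted p = 8.66e-06).

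The balance of these transcripts within a library was read as a ratio of RPKM values, as a description with no test. ODC1 per OAZ1 was 1.27, 1.15 and 1.23 in controls labelled SK-N-AS and 0.664, 0.551 and 0.674 in controls labelled SK-N-BE(2). The ML210 libraries gave 1.17, 1.17 and 1.09 under the first label and 0.678, 0.561 and 0.642 under the second. By merged exon length (2968 bases for ODC1, 3436 for OAZ1), ODC1 thus exceeded OAZ1 in all 6 libraries labelled SK-N-AS and in none of the 6 labelled SK-N-BE(2). Which gene is above depends on the length used, while the shift of the ratio between the labels does not. AZIN1 per OAZ1 was 0.326, 0.385 and 0.381 in controls labelled SK-N-AS and 0.389, 0.321 and 0.448 in controls labelled SK-N-BE(2), so the controls of the labels overlapped in this ratio. With ML210 it was 0.287, 0.339 and 0.352 under the first label and 0.287, 0.245 and 0.316 under the second.

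**Figure D3:**
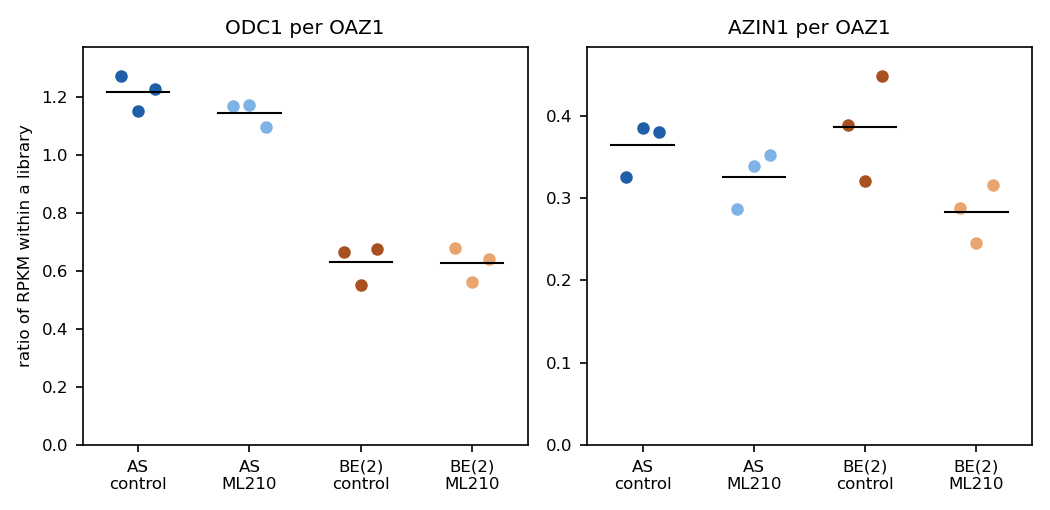
Ratio of RPKM within each library for ODC1 per OAZ1 and AZIN1 per OAZ1, one point per library and a line at the mean of 3. ODC1 per OAZ1 is between 1.09 and 1.27 in libraries labelled SK-N-AS and between 0.551 and 0.678 in those labelled SK-N-BE(2).

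Among the breakdown genes SAT1 was lower and the oxidases were higher under the SK-N-BE(2) label. SAT1 (chromosome X, 23783173 to 23786226, plus strand), the acetyltransferase that starts polyamine breakdown, was at 6.42, 7.53 and 6.00 CPM against 3.44, 3.72 and 2.47 CPM. The log2 difference was -1.05 (SE 0.295, adjusted p = 0.00643). In the ML210 libraries the groups were also apart (6.45, 6.13 and 6.88 CPM against 5.88, 4.98 and 2.08 CPM), but the log2 difference of -0.59 was not called (adjusted p = 0.0882). Batch 3 had -1.71 there and batches 1 and 2 had -0.13 and -0.30.

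SMOX (chromosome 20, 4120980 to 4187747, plus strand), the spermine oxidase, was at 1.70, 3.35 and 2.18 CPM in controls labelled SK-N-AS and at 13.8, 16.2 and 9.95 CPM in controls labelled SK-N-BE(2). It was 5.54-fold higher, a log2 difference of 2.47 (SE 0.258, 95% interval 1.91 to 3.03, adjusted p = 1.95e-06), and the ML210 libraries gave 2.46. PAOX (chromosome 10, 133379234 to 133391694, plus strand), which oxidizes the acetylated polyamines, was at 0.0390, 0.128 and 0.0948 CPM against 0.925, 0.634 and 0.851 CPM. These levels rest on 17 and 164 reads over 3 libraries each. The log2 difference was 3.21 (SE 0.532, 95% interval 2.06 to 4.35, adjusted p = 9.88e-05), and 2.22 in the ML210 libraries, where 34 and 183 reads were counted. Of the exon bases of PAOX, 6.94% are shared with another gene on the same strand.

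**Figure D4:**
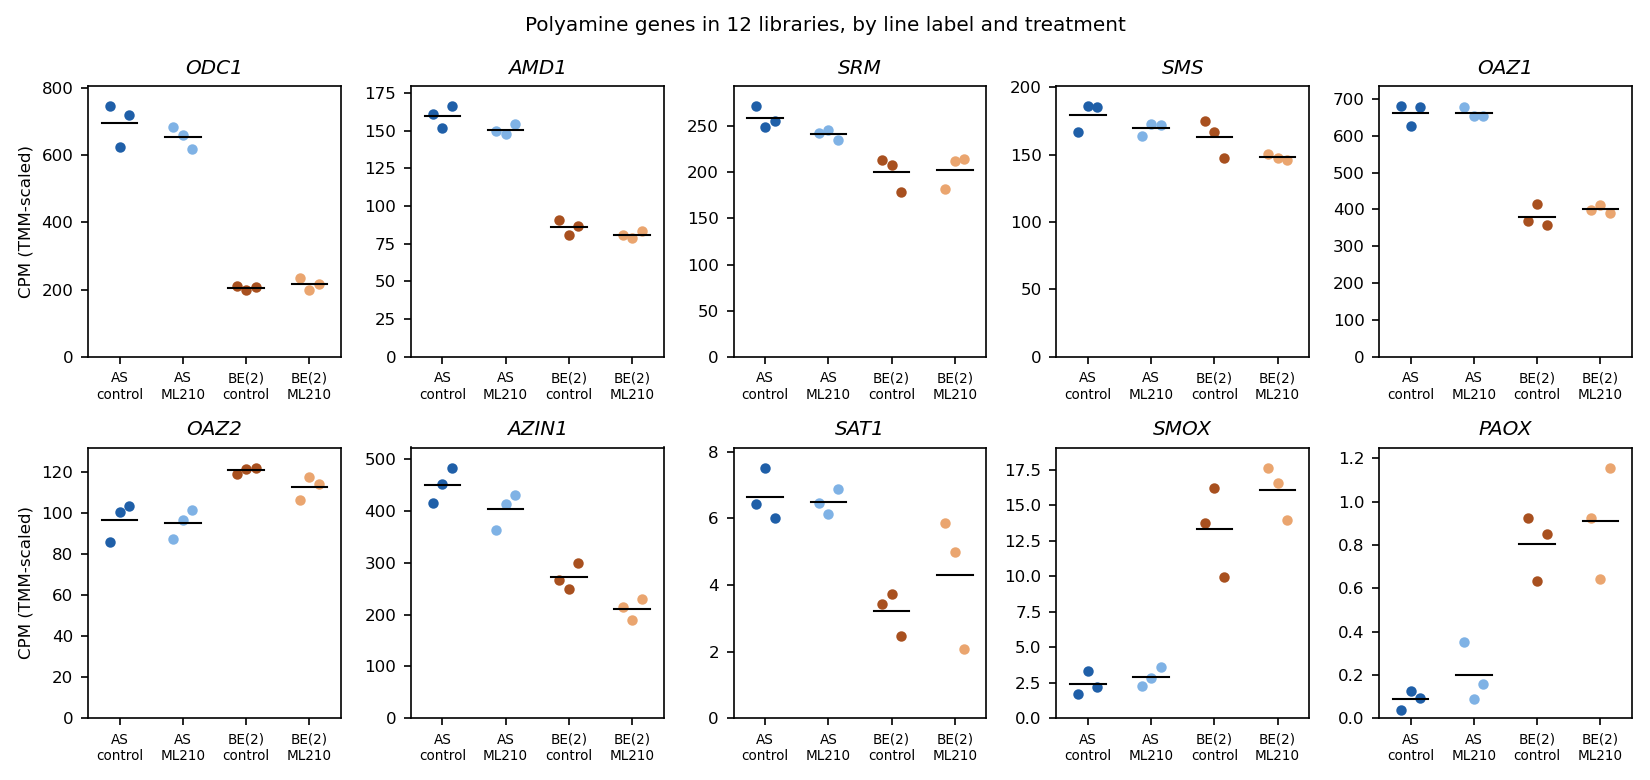
CPM of each of the 10 genes in the 12 libraries (axes from 0, each gene with its own scale), one point per library and a line at the mean of 3, with AS for labelled SK-N-AS and BE(2) for labelled SK-N-BE(2). The labels are apart for all genes but SMS in controls and for all 10 in ML210 libraries, while control and ML210 points of the same label mostly overlap.

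The same comparison in the ML210 libraries called 9 of the 10 members, 3 higher (34.6% of all genes) and 6 lower (34.5%), where 69.0% of all genes were called in either direction. SMS took the place of SAT1 among the lower ones, and the groups did not overlap for any of the 10 members, against 73.1% of all genes. ODC1 had the furthest of the lower differences, as in the controls.

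The question of the study was what a GPX4 inhibitor does to these cells, and for the polyamine genes the ML210 libraries stayed close to the controls of the same label. Under the SK-N-AS label, 0 of 10 members were called by edgeR, 0 by DESeq2 and 0 at an unadjusted p under 0.05. Of all genes, 0.0296% were called by edgeR and 0.296% of those with an adjusted p by DESeq2, and 6.89% had an unadjusted p under 0.05. Only SRM had groups that did not overlap (243, 246 and 235 CPM with ML210 against 272, 249 and 256 CPM), a share of members near the 14.9% of all genes. Under the SK-N-BE(2) label, edgeR called 0 of 10 and DESeq2 called 1, AZIN1, where edgeR called 1.37% of all genes and DESeq2 4.61% of those it gave an adjusted p. AZIN1 was also the only member at an unadjusted p under 0.05 there, as 13.5% of all genes were, and AZIN1 and OAZ2 had groups that did not overlap, beside 17.4% of all genes. The median log2 change of the members was -0.06 and 0.05 under the labels in this order, with -0.01 and 0.00 over all genes.

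AZIN1 had the smallest p of the members after ML210 under the SK-N-BE(2) label, and whether it was called depended on the fit. It was at 267, 249.6 and 300.3 CPM in controls labelled SK-N-BE(2) and at 214, 189 and 231 CPM with ML210, each below all 3 controls. The log2 change was -0.37 (SE 0.0921, 95% interval -0.56 to -0.17, adjusted p = 0.0690), a level 1.29-fold lower, and -0.32, -0.40 and -0.38 in batches 1, 2 and 3. With the batch label as a replicate block it was -0.37 over both lines (adjusted p = 0.0188) and -0.37 within each line label (adjusted p = 0.000724), and both called it. DESeq2 gave -0.38 (adjusted p = 0.00871), and edgeR without replicate 3 of the ML210 libraries gave -0.45 (adjusted p = 0.00932). Over the 19 alternatives the change lay between -0.45 and -0.31 and the adjusted p between 0.000724 and 0.221.

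Under the SK-N-AS label AZIN1 read 415, 452 and 484 CPM in controls and 364, 414 and 431 CPM with ML210, which overlapped. The log2 change of -0.16 (SE 0.0918, adjusted p = 0.797) had the same sign in each batch, with -0.19, -0.13 and -0.17. The difference between the responses of the labels was -0.21 (95% interval -0.49 to 0.07, adjusted p = 0.780), so no difference was shown. Averaged over both labels, AZIN1 changed by -0.26 (SE 0.0650, adjusted p = 0.0708). This was called with the replicate block over both lines (-0.26, adjusted p = 0.0220) and within each label (-0.26, adjusted p = 0.000695), by DESeq2 (-0.27, adjusted p = 0.00912) and without replicate 3 of the ML210 libraries labelled SK-N-BE(2) (-0.30, adjusted p = 0.0121).

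Small changes shared by both labels were sought in this mean, in which edgeR called 0 of 10 members and DESeq2 1 (AZIN1), beside 1.23% of all genes by edgeR and 5.04% by DESeq2. An unadjusted p under 0.05 was reached by 3 members, AMD1, SMS and AZIN1, and by 14.1% of all genes. These 3 were below the control of their batch in all 6 pairs, as were 6.11% of all genes. They were picked by their p in the same libraries, so the shared sign is no separate support. AMD1 went from 161, 152 and 166 to 150.1, 148 and 154 CPM under the SK-N-AS label and from 90.7, 81.0 and 86.9 to 80.9, 78.7 and 83.2 CPM under the SK-N-BE(2) label. The groups overlapped in both, and the mean log2 change was -0.09 (95% interval -0.17 to -0.003, adjusted p = 0.335). SMS had a mean change of -0.11 (95% interval -0.21 to -0.01, adjusted p = 0.296). For both enzymes the intervals hold only small changes.

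ODC1 did not follow ML210 under either label. It was at 684, 660.3 and 619 CPM with ML210 under the SK-N-AS label and at 233, 200.03 and 217 CPM under the SK-N-BE(2) label. Both sets overlapped their controls, with log2 changes of -0.09 (95% interval -0.25 to 0.07, adjusted p = 0.884) and 0.07 (95% interval -0.09 to 0.23, adjusted p = 0.767). OAZ1 was similarly level, at 678, 653 and 655 CPM and at 399, 413 and 391 CPM, with log2 changes of 0.00 and 0.07. OAZ2 under the SK-N-BE(2) label read 106, 118 and 115 CPM, all below its controls, with a log2 change of -0.10 (95% interval -0.26 to 0.06, adjusted p = 0.630). SRM changed by -0.10 under the SK-N-AS label (adjusted p = 0.860) and by 0.02 under the SK-N-BE(2) label (adjusted p = 0.976).

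The breakdown genes had the widest intervals. SAT1 under the SK-N-BE(2) label was at 3.44, 3.72 and 2.47 CPM in controls and at 5.88, 4.98 and 2.08 CPM with ML210, so that 2 of the 3 treated libraries were above all controls and replicate 3 was below them. The log2 change was 0.42 (SE 0.295, 95% interval -0.22 to 1.06, adjusted p = 0.616), and 0.73 (adjusted p = 0.0352) without that replicate. Under the SK-N-AS label it was -0.04 (95% interval -0.66 to 0.59). SMOX had changes of 0.28 (95% interval -0.29 to 0.84) and 0.27 (95% interval -0.24 to 0.79) under the labels, with 2.26, 2.83 and 3.60 CPM and 17.6, 16.6 and 13.9 CPM after ML210. PAOX, with 34 reads in the ML210 libraries labelled SK-N-AS, had a change of 1.17 there (95% interval -0.08 to 2.42, adjusted p = 0.746), in which replicate 1 stood out at 0.354 CPM beside 0.0880 and 0.159 CPM. At this depth the interval leaves a change of up to 2.42 undecided.

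**Figure D5:**
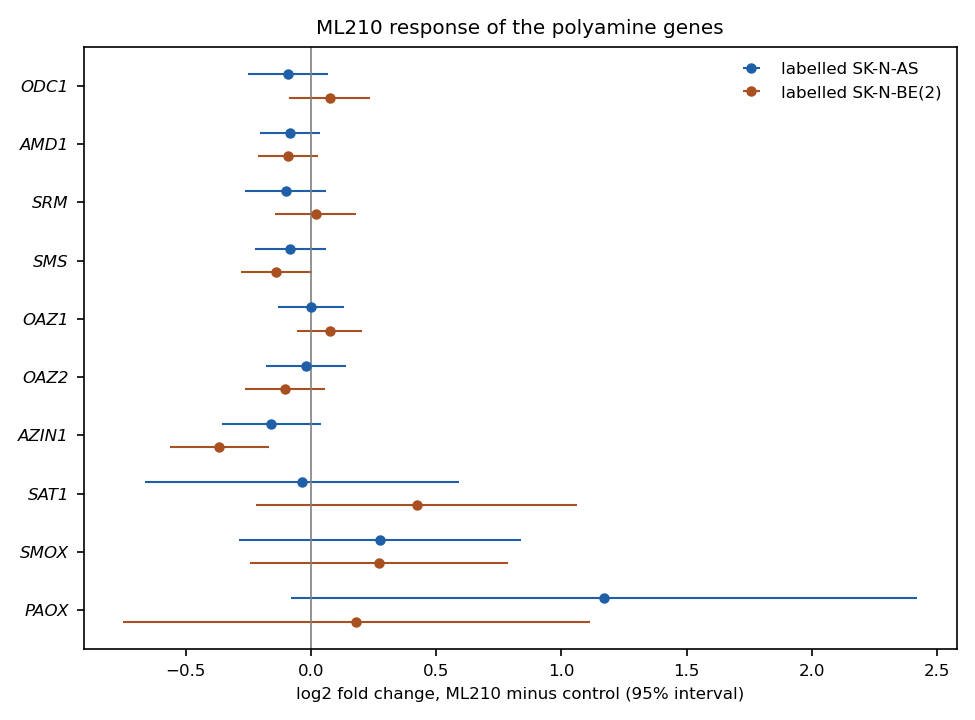
Log2 change with ML210 for each gene and its 95% interval, by line label. Every interval crosses 0 except that of AZIN1 under the SK-N-BE(2) label (-0.56 to -0.17).

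A test of the difference between the responses of the labels called 0 of 10 members by edgeR and 0 by DESeq2, and 0 had an unadjusted p under 0.05. Of all genes, 0.00493% were called by edgeR, 0.256% by DESeq2, and 7.16% had such a p. The differences ran from -0.99 for PAOX (95% interval -2.54 to 0.56) to 0.46 for SAT1 (95% interval -0.44 to 1.35). For ODC1 the difference was 0.16 (95% interval -0.06 to 0.39) and for AMD1 -0.01 (95% interval -0.18 to 0.16).

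The wider pathway was read from 4 further lists with 32 symbols, of which 27 were tested. After ML210, edgeR and DESeq2 both called 0 of the 27 under the SK-N-AS label, with 0 at an unadjusted p under 0.05. Under the SK-N-BE(2) label edgeR called 0, DESeq2 called 1 and 5 had an unadjusted p under 0.05, beside 1.37%, 4.61% and 13.5% of all genes in this order. The gene that DESeq2 called was SLC3A2, the heavy chain of several amino acid transporters, singled out after its values were seen. It was at 68.8, 68.7 and 69.5 CPM in controls labelled SK-N-BE(2) and at 191, 117 and 100.1 CPM with ML210, all above the controls. The log2 change was 0.98 (SE 0.202, adjusted p = 0.0515) by edgeR and 0.97 (adjusted p = 1.24e-05) by DESeq2. In edgeR with library totals the change was 0.99 and called (adjusted p = 0.0494). With the replicate block it was 0.94 over both lines (adjusted p = 0.0237) and 0.92 within each label (adjusted p = 0.0430). It was called at 0.64 (adjusted p = 0.0168) without replicate 1 of these ML210 libraries and at 1.14 (adjusted p = 0.00589) without replicate 3, and the adjusted p ranged from 1.24e-05 to 0.188 over 19 alternatives. The block within each label also called SLC12A8, a transporter (0.68, adjusted p = 0.00936). In the mean of both labels edgeR called 0 of the 27 and DESeq2 1, again SLC3A2, and 3 had an unadjusted p under 0.05, beside 1.23%, 5.04% and 14.1% of all genes. That mean change of SLC3A2 was 0.58 (adjusted p = 0.0885) and was called at 0.55 with the replicate block over both lines (adjusted p = 0.0492). It was also called at 0.41 (adjusted p = 0.0129) and 0.66 (adjusted p = 0.0148) without replicates 1 and 3, in this order, of the ML210 libraries labelled SK-N-BE(2), while the block within each label called SLC12A8 at 0.48 (adjusted p = 0.0140). For the difference between the responses edgeR and DESeq2 called 0 of the 27 and 3 had an unadjusted p under 0.05, as had 7.16% of all genes, with SLC3A2 at 0.81 (95% interval 0.17 to 1.44, adjusted p = 0.621).

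Between the controls, 8 of these 27 genes were higher and 13 lower under the SK-N-BE(2) label, again beside 69.2% called among all genes. With library totals the split was 12 higher and 9 lower. The factor eIF5A, the protein that receives hypusine from spermidine, was lower in both forms, with EIF5A at 969, 972 and 965 CPM against 369, 401 and 393 CPM (log2 difference -1.32, adjusted p = 1.89e-10) and EIF5A2 at -1.27 (adjusted p = 2.46e-06). DOHH, the second enzyme of hypusine formation, was at -0.31 (adjusted p = 0.00486), and at -0.06 and not called with library totals (adjusted p = 0.555). DHPS, the first enzyme, was not called at 0.85 (adjusted p = 0.0620), on 55 and 102 reads (mean 0.270 against 0.488 CPM). It was called at 1.07 without replicate 1 of the SK-N-BE(2) controls (adjusted p = 0.0329). DHPS shares 38.5% of its exon bases with other genes on its strand.

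Of 8 tested genes for S-adenosylmethionine supply and methylthioadenosine salvage, 2 were higher and 4 lower, where 33.9% of all genes were higher and 35.2% lower. The main S-adenosylmethionine synthetase MAT2A had a log2 difference of -0.62 (adjusted p = 4.57e-07), and the salvage enzymes MTAP and ENOPH1 had -0.74 (adjusted p = 2.69e-06) and -1.003 (adjusted p = 1.92e-09). MAT1A, the synthetase of liver, was at 3.27 (adjusted p = 0.00150) on 14 and 146 reads. Of 7 tested precursor genes and relatives, 2 were higher and 3 lower, beside the same shares of all genes. One of the lower, SATL1, was called at an adjusted p of 0.0483, which ranged from 0.0161 to 0.153 over 19 alternatives. The ornithine-forming arginase ARG2 was higher by 0.96 (adjusted p = 0.000539) and the second antizyme inhibitor, AZIN2, by 3.78 (adjusted p = 7.83e-05, 42 and 586 reads). OAT, which turns ornithine to another use, was at -0.60 (adjusted p = 6.81e-06) and AGMAT, which makes putrescine from agmatine, at -1.09 (adjusted p = 0.00157).

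Of 8 tested transport genes, 4 were higher and 3 lower, where 33.9% of all genes were higher and 35.2% lower. SLC18B1, a vesicular polyamine transporter, was at 24.6, 24.1 and 23.7 CPM in controls labelled SK-N-AS (4899 reads) and had 4 reads in all 3 controls labelled SK-N-BE(2). The lysosomal polyamine exporter ATP13A2 was higher by 0.82 (adjusted p = 5.32e-07), and the organic cation exporter SLC47A1 by 3.14 (adjusted p = 2.14e-05, on 27 and 239 reads). SLC3A2 was lower, with -1.64 (adjusted p = 4.13e-05).

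Known regulators of transcription in this pathway also differed between the labels. Besides MYCN (log2 difference -14.38, adjusted p = 9.32e-14), MYC was at 2.38, 2.64 and 1.18 CPM in controls labelled SK-N-AS and at 79.6, 85.2 and 94.7 CPM in controls labelled SK-N-BE(2). NFE2L2, a regulator of antioxidant genes, was higher by 1.09 (adjusted p = 3.97e-09). With 1 line per label, these differences cannot be told apart from any other difference between the lines.

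The genes whose pattern over the 12 libraries was closest to that of ODC1 were sought among 14424 protein-coding genes, by the root mean square distance of log2 CPM after centring each gene. They were CCDC134 (distance 0.0728), SLC39A3 (0.0801) and DESI1 (0.0837), with log2 differences between the controls of -1.78, -1.83 and -1.65. For SAT1 the closest were ALDH2 (distance 0.196), COTL1 (0.216) and NDRG4 (0.233), with -1.13, -1.15 and -0.87. Of 14 tested genes within 500 kb of ODC1, 1 was higher, 8 were lower and 5 were not called under the SK-N-BE(2) label, with a median log2 difference of -0.95. Over all genes tested, 33.9% were higher and 35.2% lower, with a median of -0.01. The abundant neighbours RRM2 (-1.29) and HPCAL1 (-1.49) were lower like ODC1, NOL10 (-0.25) and PDIA6 (-0.23) differed little, and KLF11 was at 0.04. MYCN lies on the same chromosome, 5492 kb beyond the end of ODC1.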

How the data were processed

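Polyadenylated RNA of 12 libraries was sequenced on an Illumina NovaSeq instrument from stranded libraries, per the labels' protocols. The deposited values were whole-number counts per gene. Per the submitters' processing notes, reads were handled with featureCounts 2.0.5, HISAT2 2.2.1, Trimmomatic (version written as 1.4) and FastQC on GRCh38. The sources used here give no strand setting, multi-mapping rule or annotation, so reads of overlapping or antisense genes may be mixed.

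Symbols came from a table of gene names (61399 identifiers) and GENCODE 29 (145), which also gave coordinates and exon lengths. Of 61552 genes, 20304 passed filterByExpr by group. In R 4.3.3, edgeR 4.0.16 fitted all 12 libraries together after TMM scaling, with 1 coefficient per group, which left 8 residual degrees of freedom at a common dispersion of 0.0223. The robust quasi-likelihood test was two-sided, p was adjusted by Benjamini-Hochberg over the 20304 genes, and adjusted p values in the text are from this test where no other is named. The procedure was tested on simulated data. SEs are the log2 fold change divided by the root of F. Log2 CPM used a prior count of 2. Alternatives were DESeq2 1.42.0, other scaling, no filter, replicate blocks, fewer libraries and each replicate left out.

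The members and lists were chosen with earlier results of these data known. All members, MYCN and GPX4 were named. Of the other pathway genes, those called after ML210 and up to 4 per list with the smallest adjusted p between controls were named. Also named were the 3 genes most like ODC1 and SAT1, and neighbours of ODC1. The replicate numbers equal the batch labels, and libraries were paired by these labels. Deviations of control and ML210 libraries of a batch correlated at 0.357, 0.068 and 0.121 under the SK-N-AS label. Across batches there, control 2 with ML210 3 gave 0.189, control 3 with ML210 2 gave 0.125, and the other pairs were negative. Under the SK-N-BE(2) label a shared batch gave 0.096, 0.12 and 0.169, and pairs across batches were -0.1 to -0.007. Controls of both labels in a shared batch gave -0.082, -0.003 and -0.027. Under the SK-N-AS label, the pairs of batches 2 and 3 thus do not stand out, and differences by batch rest on the labels.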

Additional observations from a re-analysis of the deposited data

How the results depend on the processing

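Between controls, the calls of ODC1, AMD1, OAZ1, OAZ2, AZIN1, SMOX and PAOX kept their direction under all alternatives run. Members called numbered 9, 8 with library totals and 9 to 10 with each replicate left out, and calls over all genes went from 14047 to between 13401 and 14241 with a replicate left out. MAT2B, lower between controls (-0.24), was at 0.0117 with library totals (adjusted p = 0.873). The cause was not tested.

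After ML210, members called under the SK-N-BE(2) label and in the mean of both labels went from 0 to 1 (AZIN1) with no filter, with the replicate block over both lines, with the block within each label and with DESeq2. They ranged from 0 to 2 and from 0 to 1 with each replicate left out. Counts over all genes moved more. Under the SK-N-AS label 6 became 33 with no filter, 38 with the block within each label, 21 in a fit of the 6 libraries compared, 52 with DESeq2 and 3 to 13 with a replicate left out. Under the SK-N-BE(2) label 279 became 556 with no filter, 455 with the block over both lines, 1386 within each label, 51 in a fit of the 6 libraries, 790 with DESeq2 and 48 to 1242 with a replicate left out. The 1242 came without replicate 3 of the ML210 libraries labelled SK-N-BE(2). For the difference of responses 1 became 24 with no filter, 85 with the block within each label, 45 with DESeq2 and 1 to 156 with a replicate left out. For the mean 250 became 531, 1240 and 825 under the same settings and 63 to 1006 with a replicate left out. The block changed the call of no member other than AZIN1. Depth limited PAOX, with 17 to 183 reads per group.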
